A study of Mus musculus with 6 samples.

Results

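Expression of the main antagonists and target genes of the tumor suppressor p53 was followed in human leukemic cells grown in mice. The genes were MDM2, MDM4, CDKN1A, BTG2, GADD45A, SESN1, SESN2, ZMAT3 and TP53INP1, chosen by symbol. Of these 9 genes, 8 were among the 13892 rows of the expression table, and all 8 passed the filter on low values. SESN2 was not analysed here. The cells came from acute myeloid leukemia (AML) that arose in NSG mice, an immunodeficient strain, after human hematopoietic stem cells had been transduced with NPM1c, a mutant nucleophosmin found in the cytoplasm. Every sample carried NPM1c, and no sample without it was compared. Marrow of 3 moribund mice, each from its own transduction, was sorted into a bulk leukemic population gated on GFP and CD33, and into leukemic stem cells (LSC) gated on CD123 as well. GFP stood in for NPM1c. The bulk gate did not select on CD123. Each mouse gave 1 library of each population and its number to both, so there were 3 bulk and 3 LSC libraries. The samples are labelled with the host's species, while the gene symbols are human.

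The transcription factor p53 is held at a low level by MDM2, a ubiquitin ligase that marks it for degradation, and by MDM4, a related protein that blocks its activity. When DNA damage or other stress frees p53, it switches on genes that stop the cell cycle, repair DNA, kill the cell or adjust metabolism, and it switches on MDM2 itself, which closes a feedback loop. Nucleophosmin binds ARF, an inhibitor of MDM2, and the mutant form carries ARF out of the nucleolus, so the pathway is of interest in leukemia with NPM1c. In blood stem cells p53 and p21, the product of CDKN1A, are known for their part in quiescence.

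Libraries held 10669560 to 14933494 reads, with 27.2% to 70.0% of them assigned to MTRNR2L genes, nuclear genes that resemble mitochondrial ribosomal RNA. Bulk replicate 1 had the largest share and kept 3423878 other reads. Values are CPM, reads scaled to the authors' normalized library size, or log2 of CPM. IL3RA, which encodes CD123, stood at 1.56 to 2.39 CPM in bulk and 48.0 to 139.5 CPM in LSC. The other gate gene, CD33, overlapped between the groups, at 4.47, 8.23 and 13.1 CPM in bulk and 6.82, 8.07 and 1.19 CPM in LSC. CD34, a stem cell marker that was no part of the gate, stood at 7.22 to 26.8 CPM in bulk and 0.749 to 5.41 CPM in LSC. Plasmacytoid dendritic cell markers, 12 in number, all rose in LSC, from a summed 130 to 331 CPM to 2044 to 3816 CPM. The gate gene IL3RA is among the 12, so its part of the count and of the sums was set by the sort. None of the 12 lacked reads in all libraries of a group. Of the other marker lists, 2 of 11 B lineage, 3 of 11 erythroid and 1 of 6 monocyte genes tested fell and none rose. Among all genes tested 1.33% fell and 2.71% rose. Blocked by mouse, 7 B lineage, 8 erythroid and 3 monocyte genes fell and 1 B lineage gene, BLNK, rose. In that fit 7.71% of all genes fell and 8.25% rose. No granulocyte or T and NK cell marker passed, of 12 and 5 tested, and voom called none. At an unadjusted p under 0.05, 3 granulocyte markers were lower (25%, against 10.1% of all genes). Blocked by mouse, 9 of the 12 granulocyte markers fell and no T and NK cell marker passed. Granulocyte markers summed to 4230 to 8828 CPM in bulk and 960.2 to 3563 CPM in LSC, erythroid markers to 212 to 899.6 and 59.4 to 236 CPM, and monocyte markers to 809 to 1186 and 194 to 422 CPM. The part of these cell types in the results below was not tested. In sorted populations a smaller share of cells that express a gene and less RNA per cell cannot be told apart.

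Of the 8 p53 pathway genes measured, 2 rose in LSC and none fell. CDKN1A, which encodes the cyclin-dependent kinase inhibitor p21, rose 10.5-fold, and BTG2, an antiproliferative gene, rose 4.68-fold. The p53 antagonists MDM2 and MDM4, the targets GADD45A, ZMAT3 and TP53INP1 and the sestrin gene SESN1 did not pass the test. Genes were called at an adjusted p under 0.05 from limma over 13755 tested genes (Benjamini-Hochberg). By that rule 2.71% of all genes were higher in LSC and 1.33% lower. The median log2 change of the 8 genes was 0.12, against -0.0036 for all genes tested, and 4 of the 8 changes were positive. LSC and bulk values did not overlap for MDM4, CDKN1A and BTG2 (LSC above bulk, as in 13.2% of all genes) or for TP53INP1 (LSC below bulk, 11.9%). At an unadjusted p under 0.05, 1 of the 8 was lower, as were 10.1% of all genes, and voom on recovered reads called none lower. A fit blocked by mouse again called 2 higher and none lower, beside 8.25% and 7.71% of all genes.

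**Figure D1:**
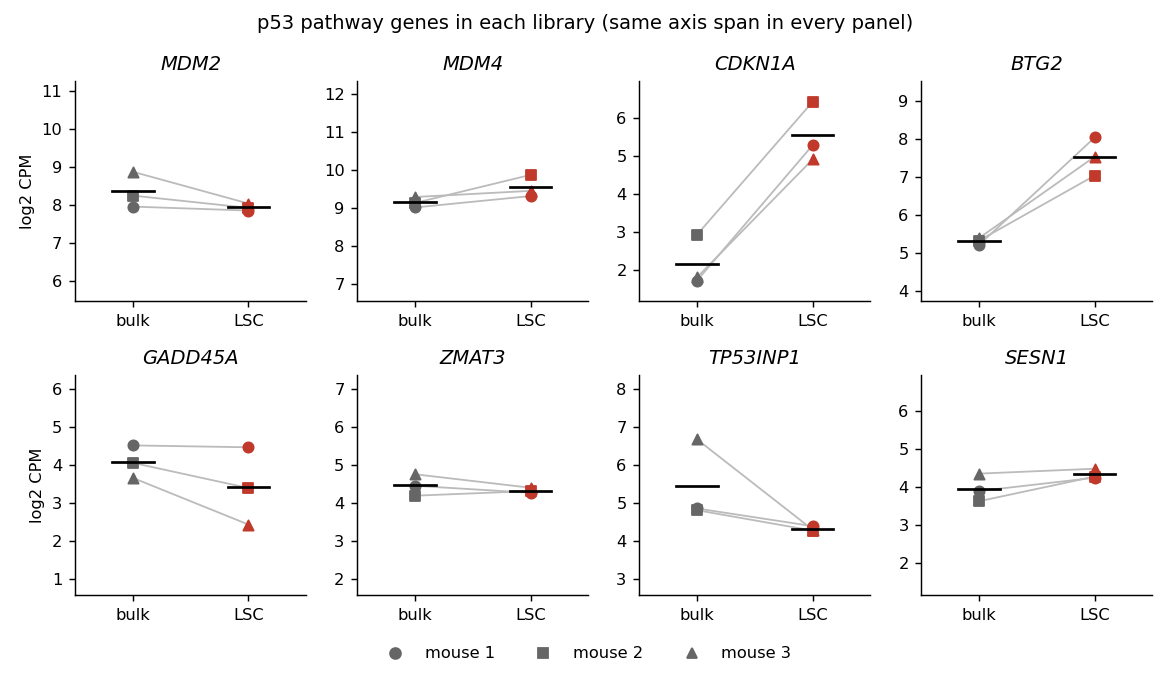
Each panel shows 1 gene in log2 CPM, with bulk libraries in grey, LSC libraries in red, a line joining the libraries of a mouse and a black bar at the group mean (n = 3). The lines of CDKN1A and BTG2 rise in all 3 mice, while TP53INP1 is high in the bulk library of mouse 3 alone.

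Of the genes that act on the cell cycle, CDKN1A showed the largest change. Its bulk libraries held 3.27, 7.56 and 3.47 CPM in mice 1, 2 and 3, and its LSC libraries 38.7, 85.4 and 29.8 CPM. The lowest LSC value was well above the highest bulk value, and in both populations mouse 2 was highest. The log2 change was 3.39 (SE 0.50, adjusted p = 0.00805), with 4.77 ± 2.42 CPM in bulk and 51.3 ± 29.9 CPM in LSC (mean ± SD, n = 3). Within mice 1, 2 and 3 the log2 change was 3.56, 3.50 and 3.10, a narrower range than that of BTG2. The bulk values rest on 19, 89 and 54 reads, so counting error is largest in bulk replicate 1. With a pseudocount of 5 CPM the log2 change of CDKN1A was smaller, at 2.43, and it still passed (limma adjusted p = 0.00551). In the authors' deposited table the change of CDKN1A, turned to LSC minus bulk, was 3.39 with a false discovery rate of 0.107. No gene had a rate under 0.05 there, and the lowest was 0.0813.

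BTG2 belongs to the family of antiproliferative BTG/TOB proteins, which slow growth and speed mRNA deadenylation. Its bulk libraries were close together, at 37.3, 40.4 and 42.3 CPM, and its LSC libraries spread more widely, at 265, 132 and 187 CPM. The groups were again fully apart. The log2 change was 2.23 (SE 0.31, adjusted p = 0.00628), and it was 2.83, 1.71 and 2.14 in mice 1, 2 and 3. The order of mice thus differed between the 2 genes: mouse 2, with the highest CDKN1A, had the lowest BTG2 in LSC. The authors' deposited table gave BTG2 a false discovery rate of 0.153. Without both libraries of mouse 1 neither call held: CDKN1A had a log2 change of 3.30 (adjusted p = 0.130) and BTG2 of 1.93 (adjusted p = 0.125). That smaller fit called only 37 of all genes higher, against 373 with all libraries. Both passed when any single library was left out.

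GADD45A, a stress sensor that binds PCNA and p21 and is induced by DNA damage, did not follow CDKN1A. It stood at 22.96, 16.7 and 12.7 CPM in bulk and at 22.2, 10.5 and 5.42 CPM in LSC of mice 1, 2 and 3. The groups overlapped, and in each population mouse 1 was highest and mouse 3 lowest. Its log2 change was -0.65 (SE 0.53, 95% interval -1.83 to 0.54, adjusted p = 0.522). Single libraries moved it both ways: it was -1.17 without LSC replicate 1 (adjusted p = 0.226), -0.43 without bulk replicate 1 (adjusted p = 0.837) and -0.15 without LSC replicate 3 (adjusted p = 0.913).

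The 2 antagonists of p53 had small changes of opposite sign. MDM2, which is both an inhibitor and a target of p53, stood at 249, 305 and 471 CPM in bulk and at 232, 244 and 264 CPM in LSC. Bulk replicate 3 was the high value, and the LSC libraries lay close together, overlapping the lowest bulk library. The log2 change was -0.42 (SE 0.30, 95% interval -1.09 to 0.24, adjusted p = 0.459), and it was negative in 3 of 3 mice. Without bulk replicate 3 it was -0.16 (adjusted p = 0.776). MDM4, which resembles MDM2 but is not a strong ligase by itself, stood at 519, 563 and 628 CPM in bulk and at 638, 940 and 702 CPM in LSC. Its groups were apart by a small gap, and LSC replicate 2 was the highest. The log2 change was 0.40 (SE 0.27, 95% interval -0.20 to 1.00, adjusted p = 0.434), positive in 3 of 3 mice. Without LSC replicate 2 it was 0.24 (adjusted p = 0.702), and after quantile normalization 0.64 (adjusted p = 0.239). Neither gene passed under any of the 23 other settings run.

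TP53INP1 and ZMAT3 stand for the arms of cell death and growth control. TP53INP1, a nuclear protein that aids p53's death program and also acts in autophagy, stood at 28.8, 27.9 and 102 CPM in bulk and at 20.9, 19.2 and 19.6 CPM in LSC. All LSC libraries lay below all bulk libraries, but bulk replicate 3 was far above the other two. LSC minus bulk was -1.13 on the log2 scale (SE 0.49, adjusted p = 0.237), and it was -0.46, -0.54 and -2.38 in mice 1, 2 and 3. Without bulk replicate 3 it was -0.51 (adjusted p = 0.434). It passed in voom on recovered reads blocked by mouse, at -1.31 (adjusted p = 0.0404). ZMAT3, an RNA-binding zinc finger protein and tumor suppressor downstream of p53, was nearly level. It stood at 21.9, 18.3 and 27.1 CPM in bulk and at 19.3, 19.9 and 21.2 CPM in LSC, with a log2 change of -0.14 (SE 0.31, 95% interval -0.85 to 0.57, adjusted p = 0.833). The change was -0.28 without bulk replicate 2 and turned to 0.0055 without bulk replicate 3.

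Markers of the B lineage were high in the same bulk library as TP53INP1 and MDM2. Their 12 genes summed to 326, 229 and 1641 CPM in bulk replicates 1, 2 and 3 and to 156 to 232 CPM in LSC, and none lacked reads in all libraries of a group. PAX5, the factor that commits cells to the B lineage, stood at 491 CPM in bulk replicate 3 and at 59.9 and 127 CPM in bulk replicates 2 and 1. BLNK, an adaptor of B cell receptor signalling looked up after its values were seen, went the other way and made up most of the LSC sums. It stood at 18.5, 12.8 and 89.7 CPM in bulk and at 103, 103 and 161 CPM in LSC. In bulk, replicate 3 was also highest for summed monocyte markers, at 1186 CPM against 809 and 838 CPM. T and NK cell markers summed to 108 CPM there, against 78.5 and 89.4 CPM. Granulocyte and erythroid sums were lowest there, at 4230 and 212 CPM. MDM4, BTG2, SESN1 and ZMAT3 also had their highest bulk value in replicate 3. The part of B lineage or other cells in the values of TP53INP1 and MDM2 was not tested.

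**Figure D2:**
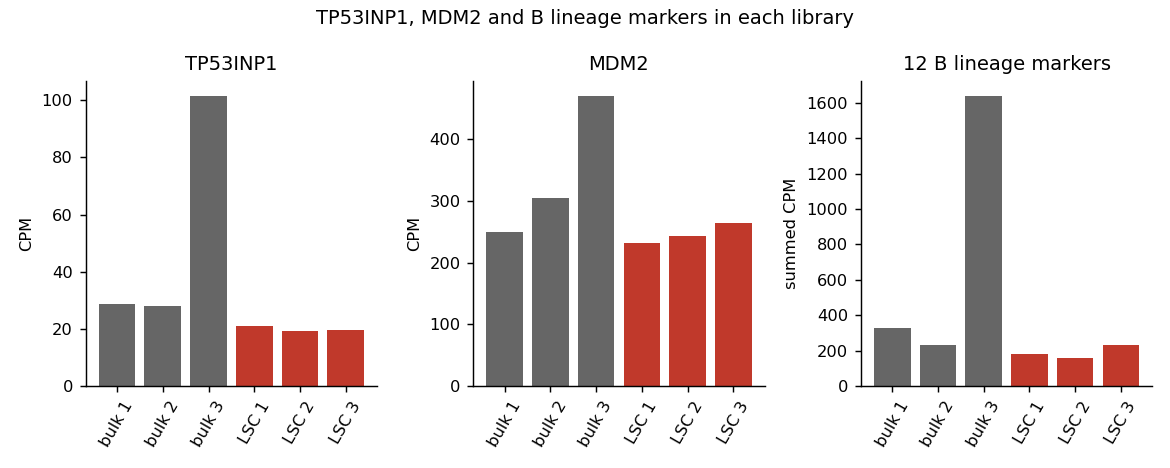
Bars show CPM of TP53INP1, CPM of MDM2 and the summed CPM of 12 B lineage markers in each of the 6 libraries, bulk in grey and LSC in red. In all 3 panels bulk replicate 3 is the highest bar, at 102 CPM, 471 CPM and 1641 CPM.

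SESN1, a sestrin that restrains the growth kinase complex mTORC1 through AMPK and GATOR signalling, stood at 14.9, 12.4 and 20.5 CPM in bulk and at 19.0, 19.4 and 22.4 CPM in LSC. Mouse 3 was highest in both populations, and the groups overlapped. A log2 change of 0.38 was estimated (SE 0.34, 95% interval -0.38 to 1.14, adjusted p = 0.564), positive in 3 of 3 mice. It was 0.21 without bulk replicate 2 (adjusted p = 0.814) and 0.57 without bulk replicate 3 (adjusted p = 0.419). Its relative SESN3, which is better known as a FOXO target, went the other way, with 101 ± 23.3 CPM in bulk and 70.5 ± 8.38 CPM in LSC (log2 change -0.50, adjusted p = 0.355). Among 10 tested relatives of the p53 genes none passed in either direction, and none did at an unadjusted p under 0.05 or with voom. Some of these relatives, TOB1 among them, are also counted in the lists of further targets below. TOB1, TP53INP2 and BTG3 had log2 changes of 0.72, -2.04 and -0.41.

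**Figure D3:**
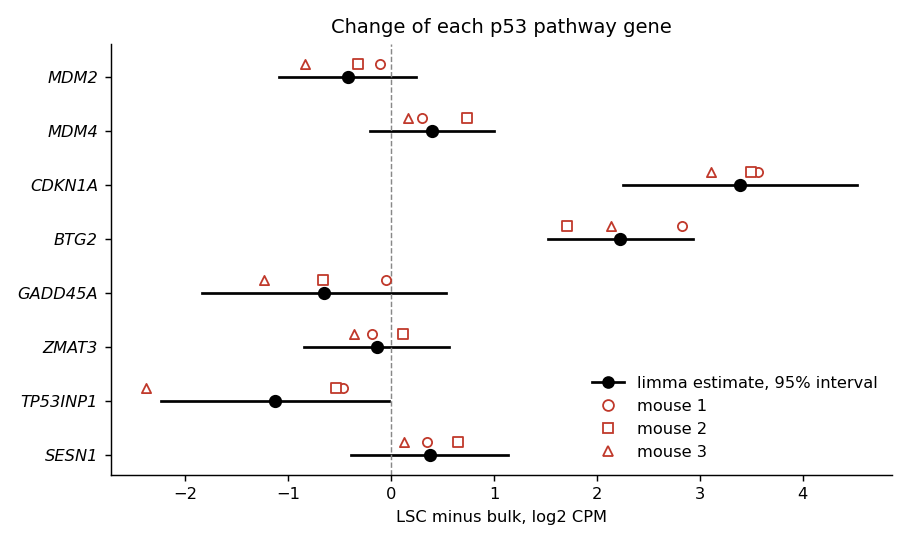
Black points are limma estimates of LSC minus bulk in log2 CPM with 95% intervals, and open red symbols are the differences within mice 1, 2 and 3. The intervals of CDKN1A (2.25 to 4.52) and BTG2 (1.52 to 2.93) lie above 0 and above those of the other genes.

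The 3 mice were compared next, with population kept in the model. None of the 8 genes differed between mice at an adjusted p under 0.05 (limma moderated F), while 1.56% of all genes did. At an unadjusted p under 0.05, 2 of 8 did, CDKN1A (adjusted p = 0.115) and GADD45A (adjusted p = 0.147), and 23.2% of all genes. The count was 0 in all 11 other settings, voom among them. Population took 88.9% of the variance of CDKN1A and 93.5% of that of BTG2, as shares of sums of squares. For GADD45A the mouse took the larger share, 68.2% against 20.5% for population, and for ZMAT3 55.8% against 14.7%. It also took slightly more for MDM2, 43.7% against 36.8%, and for SESN1, 45.6% against 41.2%. The mouse has more degrees of freedom than population, so the shares are not on equal terms. Granulocyte markers, of which 8 of 12 differed between mice, summed highest in mouse 2 in both populations, as CDKN1A did.

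The wider p53 program was read from 93 further target genes in 5 lists, of which 74 were in the table and 72 were tested. Of the 72, 5 rose in LSC (6.94%, against 2.71% of all genes), none fell and 67 did not pass. Their median log2 change was 0.11, and it was 0.28, 0.02 and -0.27 in mice 1, 2 and 3, where the medians of all genes were 0.09, 0.0075 and -0.03. At an unadjusted p under 0.05, 9 were higher (12.5%, against 10.2% of all genes) and 3 lower (4.17%, against 10.1%). Voom called 4 higher and none lower. The fit blocked by mouse called 9 higher and 4 lower, beside 8.25% and 7.71% of all genes. The 5 calls were TRAF4, TRIM22, ULK1, ISCU and PLXNB2, and none of them held without both libraries of mouse 1 or of mouse 2. Those of ULK1, ISCU and PLXNB2 were also lost without mouse 3. Over all genes, 37, 85 and 252 were higher without mouse 1, 2 or 3, against 373 with all libraries. Leaving out 1 library ended the call of ISCU in every case, that of ULK1 in every case but LSC replicate 3, and those of TRIM22 and PLXNB2 for replicates 1 and 2 of bulk and 1 and 3 of LSC. TRAF4 passed without any 1 library. Fits without 1 library called 168 to 346 of all genes higher.

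Among 15 tested apoptosis targets only TRAF4 passed. TRAF4, an adaptor of the TNF receptor-associated family, stood at 1.05, 0.528 and 1.43 CPM in bulk and at 13.3, 15.3 and 18.03 CPM in LSC (log2 change 4.06, SE 0.54, adjusted p = 0.00483). Its LSC values were close together and all far above the bulk values, which rest on 6, 6 and 22 reads. With a pseudocount of 5 CPM its log2 change was 1.78, and it still passed. The receptor genes EDA2R and TNFRSF10D had log2 changes of -2.03 (adjusted p = 0.207) and -1.04 (adjusted p = 0.305), and TNFAIP8 had 0.76. BAX, the mitochondrial pore former, was looked up after its values were seen: it stood at 6.01, 4.34 and 2.39 CPM in bulk and at 20.2, 3.95 and 7.75 CPM in LSC (adjusted p = 0.373).

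In the list of arrest and growth genes 1 of 12 rose. TRIM22, also an interferon-induced gene, had 94.0 ± 46.0 CPM in bulk and 292 ± 64.2 CPM in LSC, a log2 change of 1.72 (adjusted p = 0.0342). CCNG1, cyclin G1, a strong p53 target that feeds back on MDM2, stood at 67.0, 57.1 and 126 CPM in bulk and at 39.9, 24.9 and 58.1 CPM in LSC. It was lower in LSC in 3 of 3 mice, with a log2 change of -1.02 (adjusted p = 0.210). It passed once the fit was blocked by mouse (adjusted p = 0.0177). E2F7, a repressor of cell cycle genes, had a change of -0.97 (adjusted p = 0.277).

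Metabolic and autophagy targets gave 2 calls among 19. ULK1, the kinase that starts autophagy, had 3.96 ± 0.830 CPM in bulk and 19.6 ± 7.70 CPM in LSC, a log2 change of 2.25 (adjusted p = 0.0235). ISCU, the scaffold of iron-sulfur cluster assembly, had 8.82 ± 2.62 and 28.2 ± 8.22 CPM, a log2 change of 1.68 (adjusted p = 0.0496) close to the threshold. The ISCU call was also lost with no filter, with quantile normalization, without the variance trend and with voom (adjusted p = 0.0501, 0.0641, 0.0964 and 0.0660). Without the variance trend TRIM22 and PLXNB2 were lost too (adjusted p = 0.108 and 0.0554), and with a pseudocount of 5 CPM ULK1 was at 1.42. DDIT4, an inhibitor of mTORC1, stood at 2.25, 5.27 and 0.531 CPM in bulk and at 11.7, 36.5 and 4.47 CPM in LSC. It was higher in LSC within each mouse but the groups overlapped. Its adjusted p was 0.150, and 0.00404 once blocked by mouse. DDIT4 also differed between mice (adjusted p = 0.0449), and like CDKN1A it was highest in mouse 2 in both populations. So were the other 2 targets that differed between mice. Of the 72 further targets tested 3 differed in this way, while 1.56% of all genes did. PADI4, which citrullinates histones in neutrophils, stood at 18.5, 32.4 and 7.06 CPM in bulk and at 7.56, 16.3 and 2.57 CPM in LSC (mouse adjusted p = 0.0437). THBS1, which encodes thrombospondin-1, stood at 21.4, 88.9 and 7.63 CPM in bulk and at 4.31, 25.8 and 3.74 CPM in LSC (mouse adjusted p = 0.0200). These genes were picked from the lists because they differed between mice. FAM210B had a log2 change of -1.05 and an adjusted p of 0.299, or 0.0336 once blocked by mouse.

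DNA repair targets gave no call among 6 with limma or voom, and 1 was lower at an unadjusted p under 0.05. DDB2, which recognises ultraviolet damage, stood at 3.79, 8.23 and 3.54 CPM in bulk and at 2.68, 0.844 and 1.19 CPM in LSC (log2 change -1.79, adjusted p = 0.179). XPC, POLH and RRM2B had log2 changes of -0.37, 0.24 and 0.24. Of 20 other targets 1 rose, the semaphorin receptor PLXNB2, with 8.83 ± 1.00 CPM in bulk and 28.5 ± 5.11 CPM in LSC (adjusted p = 0.0266). The log2 changes of ARHGEF3, BLOC1S2 and KIAA0247 were 1.45, 1.01 and 1.02, and these passed in the fit blocked by mouse (adjusted p = 0.0304, 0.0479 and 0.0299). ARHGEF3 also passed without bulk replicate 3, at 2.01 (adjusted p = 0.0253).

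**Figure D4:**
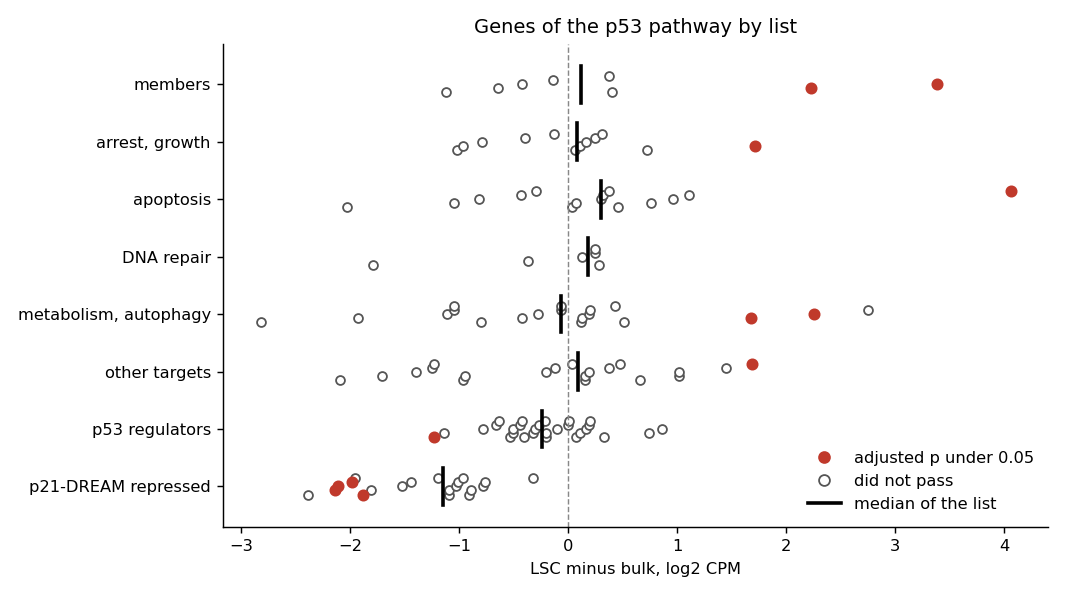
Each point is 1 tested gene, placed by its LSC minus bulk difference in log2 CPM and by its list, filled red where the adjusted p was under 0.05, with a black bar at the median of the list. Each target list has genes on both sides of 0, and the list repressed through p21 and DREAM lies wholly below 0 with a median of -1.14.

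Among 28 tested genes that regulate p53, none rose, 1 fell (3.57%, against 1.33% of all genes) and 27 did not pass. Their median log2 change was -0.24. At an unadjusted p under 0.05, 1 was higher (3.57%, against 10.2% of all genes) and 3 lower (10.7%, against 10.1%), and voom called none higher and 1 lower. PRKDC, the catalytic subunit of the DNA-dependent protein kinase, had 449 ± 68.1 CPM in bulk and 190.3 ± 24.9 CPM in LSC, or -1.23 on the log2 scale (SE 0.26, adjusted p = 0.0330). That call was lost when any 1 library was left out, and without the variance trend (adjusted p = 0.110). Of all genes 38 to 169 were lower without 1 library and 54 without the trend, against 183 in the main fit. RPL23, a ribosomal protein that can bind MDM2, stood at 144 ± 23.8 CPM in bulk and 265 ± 67.5 CPM in LSC, and HUWE1, another ligase of p53, at 231 ± 6.16 and 147 ± 24.5 CPM. Both passed in the fit blocked by mouse (adjusted p = 0.0163 and 0.0485). It called 1 regulator higher and 3 lower, beside 8.25% and 7.71% of all genes. CHEK1, a checkpoint kinase, had a change of -0.78 (adjusted p = 0.212). This gene is also on the list of cell cycle genes below.

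Cell cycle genes that p53 can repress by way of p21 and the DREAM complex were set beside CDKN1A. The part of p53 and p21 in their changes was not tested. All 20 had negative changes. Of them 4 fell, against 1.33% of all genes, and none rose. At an unadjusted p under 0.05, 14 were lower, against 10.1% of all genes, and none was higher by that rule or with voom. Blocked by mouse, 10 fell, against 7.71% of all genes. PLK4, the kinase of centriole duplication, had 63.8 ± 14.7 CPM in bulk and 16.2 ± 3.54 CPM in LSC, a log2 change of -1.98 (adjusted p = 0.0124). KIF23, a kinesin of cytokinesis, the checkpoint kinase gene BUB1B and the cyclin gene CCNB2 fell by 2.14, 1.88 and 2.12 on the log2 scale (adjusted p = 0.0178, 0.0214 and 0.0330). The summed level of the 20 genes was 879 to 911 CPM in bulk and 236 to 415 CPM in LSC. Among the LSC libraries, replicate 2 had the most CDKN1A and the highest sum, at 415 CPM. Replicate 3 had the least CDKN1A and the lowest sum, at 236 CPM. Whether the sum goes with CDKN1A over libraries was not tested. The calls of KIF23, BUB1B and CCNB2 were lost in limma without the variance trend (adjusted p = 0.0721, 0.0741 and 0.0849). All 4 calls were lost without both libraries of mouse 1 or of mouse 2, and those of PLK4, BUB1B and CCNB2 without mouse 3. Calls over the whole set dropped as well: without mouse 1, 2 or 3, 0, 8 and 74 of all genes were lower. Without the trend 54 were lower, against 183 in the main fit. Leaving out 1 library ended the call of KIF23 for replicates 1 and 2 of bulk, that of BUB1B for these and for replicates 1 and 3 of LSC, and that of CCNB2 in every case but LSC replicate 1. Such fits called 38 to 169 of all genes lower.

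Other genes of the table were ranked by likeness to each p53 gene, as the root mean square difference in log2 CPM over the 6 libraries after centring. The likeness is a description over 6 libraries that share mice and populations. For CDKN1A the nearest were CCR2, IFI44 and TDRD1, at 0.380, 0.387 and 0.389. For BTG2 they were SLC2A4RG at 0.160 and ARHGAP27 at 0.181. The nearest genes of the other 7 lay within 0.181. The measure is not scaled by a gene's own spread, so distances tend to be larger for genes with large changes, such as CDKN1A. For MDM4 the nearest were NPSR1-AS1 at 0.0360, MRPS25 at 0.0457 and C12orf5 at 0.0772, the last being the target gene that encodes TIGAR, a regulator of glycolysis. For MDM2 they were CCNY, WASF2 and LRRC58, at 0.0720 to 0.0804. The nearest to GADD45A was PLEKHM2 (0.111), to SESN1 IFLTD1 (0.0746), to ZMAT3 LCOR (0.0511) and to TP53INP1 TNFSF14 (0.181).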

How the data were processed

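RNA of 6 sorted samples (3 bulk, 3 LSC) was amplified with a NuGEN Ovation kit, per the labels' protocols. Tools listed without roles in the submitters' processing notes are RSEM, Bowtie2 and edgeR, with the build hg19. For each library the authors deposited log2 CPM with a small prior, as read from the shared floor (0.0197 CPM) and the whole steps above it. Beside them stand the authors' log2 change, a likelihood ratio score, and a p-value with its false discovery rate. Whether the mice were paired there is not stated. Reads recovered from the steps were whole within 0.1 for 100% of values under 1000 reads. A value of 3 reads corresponded to 0.190 to 0.514 CPM, and such limits cover counting error only.

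The 13755 genes that reached 1 CPM in 3 or more libraries were fitted on the deposited log2 values with limma 3.58.1 in R 4.3.3 (eBayes with trend, two-sided, Benjamini-Hochberg over all genes). The design has no block. Mouse numbers pair the libraries by design, and deviations from group means correlated at 0.33, 0.35 and 0.30 over genes within mice. Differences between mice were tested with a moderated F in a model with population. With 3 against 3, an exact permutation test cannot go below 0.1. The code was tested on simulated reads. The genes and 15 lists were chosen with earlier results of these data known. Genes named are the 8, up to 4 per list with the largest moderated statistic, and the 3 nearest in pattern. No sequence or coordinate is given, since the reference at hand is of mouse. Some genes that these rules name are not reported here. Alternatives were pseudocounts, filters, scalings, variance models, voom, the mouse as a block, and leaving out libraries or mice.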

Additional observations from a re-analysis of the deposited data

How the results depend on the processing

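Limits: 3 libraries a group, amplified RNA, and a bulk replicate 1 with fewer reads outside MTRNR2L rows. The 23 alternatives were listed with earlier results of these data known. No scaling moved the median of all genes by over 0.1 (log2). The count of 2 p53 genes higher held in 22 of them and was 0 to 2 when libraries or mice were left out, 0 without both libraries of mouse 1. EDA2R, TNFRSF10D, DDB2 and TP53INP2 gave no value under the filter of 5 CPM. The count lower was 1 with the replicate block in voom on recovered reads (TP53INP1) and 0 otherwise. The replicate block changed no other call among the 8. Of the further targets, 2 rose without the trend, and 9 with each of the 3 forms of the replicate block, which called 4, 1 (random effect) and 5 (voom) lower. Over all genes 373 rose and 183 fell in the main fit, and 197 and 54 without the trend. The block gave 1135 higher and 1060 lower, its random form 1090 and 983, and its voom form 1216 and 1217. Without single libraries or mice 0 to 4 of these targets rose, beside 37 to 346 of all genes. Of the regulators 1 rose with each form of the block and 3, 2 and 3 fell, but 0 fell without the trend or without any library or mouse. Fits without a library or mouse called 0 to 169 of all genes lower. The cause of these moves was not tested, but fewer samples enter the fits without a library. Direction turned in 3 genes that never passed: with libraries or mice left out, log2 changes ran from -0.28 to 0.0055 for ZMAT3, from -0.018 to 0.53 for POLH (negative without bulk replicate 1) and from -0.18 to 0.59 for RRM2B (negative without bulk replicate 2).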

Other observations

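The balance of the p53 antagonists was read within each library, where the scaling of libraries cancels. This measure was chosen after the values of both genes had been seen. Log2 of MDM2 over MDM4 was -1.06, -0.88 and -0.41 in the bulk libraries of mice 1, 2 and 3, and -1.46, -1.95 and -1.41 in their LSC libraries. Every LSC library lay below every bulk library, although neither gene passed the test alone. Of all single genes 11.9% lay apart with LSC below bulk and a further 13.2% with LSC above. The direction was not set beforehand, so both shares apply. No such share was worked out for ratios of genes. The mean was -0.79 ± 0.33 in bulk and -1.61 ± 0.30 in LSC (SD, n = 3), a difference of -0.82. A two-sided exact permutation test gave p = 0.1, the smallest that 3 against 3 allows, so it cannot pass 0.05. Any measure with the groups fully apart gives this value, so the test adds nothing to the separation. Levels of the 2 genes are not compared per length, and only the change of their ratio is read.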
